A study of Mus musculus with 2 samples.

Results

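The 9 genes Glul, Slc1a3, Aqp4, Kcnj10, Kcnj2, Car2, Car14, Gpr37 and Dkk3 serve glutamate, potassium, water and acid-base handling, reception and secretion in Müller glia, the radial glia of the retina. They were taken by symbol from the 31053 genes measured in single cells of mouse retina, and each symbol was found. Their levels were read in droplets with at least 10 UMIs (unique molecular identifiers, each standing for 1 captured RNA molecule) of Slc1a3, Aqp4 and Rlbp1 together and under 0.1% of UMIs from C1qa, C1qb and C1qc. Slc1a3 and Aqp4 are thus both members and part of this gate, so that their presence in gated droplets is no finding.

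The study has 1 library for each of 2 groups. The NaIO3 mice had received 20 mg/kg of sodium iodate, an oxidant toxic to the retinal pigment epithelium, by vein, and the PBS mice an equal volume of phosphate-buffered saline. On day 7 the retinas of 6 mice a group were pooled and dissociated with papain, so that animals cannot be told apart. Strain, genotype, sex and age were not given in the labels. The labels call the cells of both groups CD11b+ microglia, but the protocol names CD11b beads only for the NaIO3 pellets, so that treatment, bead selection and library cannot be told apart. With 1 library a group no test was possible, and every interval below is a 95% interval that covers counting error only.

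Most of the cells went against that label. Of 5573 PBS cells kept, 5214 were rod-like and 13 microglia-like by their transcripts, and of 9441 NaIO3 cells 5760 and 1430. The libraries shared 24 cell barcodes, 0 of them in gated droplets. The Müller gate held 30 PBS droplets, 0.538% (0.363 to 0.768) of the cells kept, and 639 NaIO3 droplets, 6.77% (6.27 to 7.29), shares that bead selection and depth can set. Of 16 Müller markers outside the 9 genes, all 16 reached 50 CPM (UMIs of the gene per 1000000 UMIs of the class) in the PBS droplets and 15 in the NaIO3 droplets, Rgr being the exception at 1.98 CPM. Among the 16 is the gate gene Rlbp1, whose presence in gated droplets is no finding either. Markers of other cells reached 50 CPM there too, so this cut alone does not set Müller glia apart. They were all 10 rod markers and 6 of 7 cone markers in both libraries, and 4 (PBS) and 5 (NaIO3) of 10 bipolar markers. Of 10 microglia markers 0 did in either library. Rgr was at 1775 CPM in the PBS droplets and at 52.1 CPM, from 11 UMIs, without the 4 of them described next, so that its level in PBS rests mostly on those 4. Just under the gate, at 8 or 9 UMIs of its genes, lay 5 PBS and 11 NaIO3 droplets, and just inside, at 10 or 11, lay 3 and 7.

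Gated droplets differed in depth and in rod RNA between the libraries. The median was 7565.5 UMIs in PBS and 29825 in NaIO3, and the median share of UMIs from 10 rod markers 0.107% and 2.16%. In addition, 4 of the 30 PBS droplets stood apart and held 36.8% of the UMIs of the 30. In 3 of them the pigment epithelium transcript Ttr had 1001, 546 and 245 UMIs, Slc1a3 had 1, 0 and 0 and Aqp4 had 0, and Rlbp1 admitted them. The fourth held 95037 UMIs, of which 7.66% were rod markers. The other 26 held 0 Ttr and 0 Rpe65 UMIs, and 0.573% of their UMIs were rod markers. The NaIO3 over PBS ratio of each member that has one is given with and without these 4 droplets, which were singled out after the data were seen. For most list genes it is given only with them, so that these droplets can shape it.

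Müller glia span the retina from the photoreceptors to the vitreous. They take up the glutamate that neurons release and convert it to glutamine, carry potassium away from active synapses through inwardly rectifying channels, and pass water through aquaporin channels in their end-feet around vessels. After injury they become reactive, a state marked by intermediate filament and acute phase genes.

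RefSeq promoter windows on build GRCm38.p6 were matched for 6 of the 9 genes. The 250 bases before the annotated start are shown for Glul and Kcnj10, which lay at opposite ends of the order of NaIO3 over PBS ratios, for the gate gene Slc1a3, and for Kcnj2, which was nearly without UMIs in gated droplets. They lie at chr1:153899679-153899928 (plus strand), chr1:172340960-172341209 (plus), chr15:8710808-8711057 (minus) and chr11:111065914-111066163 (plus). Capitals mark matches on either strand to 7 short motifs. Those of regulated factors were ACAAT, the core of sites bound by SOX factors, TTCNNNGAA, the spaced palindrome bound by STAT factors, TGACG, a part of the cAMP response element, and AGAACA, a part of the site bound by the glucocorticoid receptor. Those of general promoter elements were GGGCGG, the GC box bound by SP factors, and TATAAA, the TATA box near which transcription starts. The remaining motif, CACGTG, is a palindromic form of the E-box.
Glul: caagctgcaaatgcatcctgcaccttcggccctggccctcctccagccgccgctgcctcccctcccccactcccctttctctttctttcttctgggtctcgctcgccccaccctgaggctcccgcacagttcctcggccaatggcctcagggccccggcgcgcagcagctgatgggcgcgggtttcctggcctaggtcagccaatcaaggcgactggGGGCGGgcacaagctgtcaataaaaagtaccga
Kcnj10: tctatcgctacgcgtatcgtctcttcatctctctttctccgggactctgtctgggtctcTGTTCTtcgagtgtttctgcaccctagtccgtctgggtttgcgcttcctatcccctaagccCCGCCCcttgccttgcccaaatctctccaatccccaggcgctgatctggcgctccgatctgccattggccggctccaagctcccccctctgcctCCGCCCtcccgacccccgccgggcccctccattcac
Slc1a3: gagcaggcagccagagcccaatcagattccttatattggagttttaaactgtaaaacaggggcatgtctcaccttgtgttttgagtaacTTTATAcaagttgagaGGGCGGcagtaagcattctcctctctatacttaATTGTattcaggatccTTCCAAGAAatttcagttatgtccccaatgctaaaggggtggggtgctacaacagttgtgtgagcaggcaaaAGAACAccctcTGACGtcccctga
Kcnj2: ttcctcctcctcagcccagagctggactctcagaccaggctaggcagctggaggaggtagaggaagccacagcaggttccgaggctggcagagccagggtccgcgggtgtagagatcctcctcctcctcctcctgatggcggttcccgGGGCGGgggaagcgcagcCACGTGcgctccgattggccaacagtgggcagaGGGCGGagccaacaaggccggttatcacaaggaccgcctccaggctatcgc

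The Slc1a3 window held 6 of the 7 motifs, all but CACGTG, without overlaps, and was 44.8% G and C against a median of 52.4% over 32817 promoters. Its TTCNNNGAA begins 96 bases before the start, and 7.01% of all windows hold this motif. The Glul window held GGGCGG 33 bases before the start and the Kcnj10 window 130 and 36 bases before it, as do 32.7% of windows. Kcnj10 also held AGAACA (16.1% of windows), and Kcnj2 held GGGCGG 102 and 51 bases and CACGTG 84 bases before the start (6.02% of windows for CACGTG). The shares over all windows were 27.7% for ACAAT, 17.7% for TGACG and 12.4% for TATAAA. A match describes letters in these windows and shows no binding.

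Glul encodes glutamine synthetase, which makes glutamine from glutamate, and lies at chr1:153899944-153909723 (plus strand, protein coding, in the GENCODE annotation of mm10). Glul UMIs per droplet ranged from 3 to 274 in PBS, with a median of 67, and from 1 to 357 in NaIO3, with a median of 77. As a share of all UMIs it was at 6812 CPM in the PBS droplets and 2546 CPM in the NaIO3 droplets. The NaIO3 over PBS ratio was 0.374 (0.358 to 0.39), and 0.271 (0.259 to 0.284) without the 4 droplets. The gene was thus lower as a share of a larger total, while its count in the median droplet was not lower.

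Slc1a3 (chr15:8634124-8710764, minus strand) encodes GLAST, the main glutamate transporter of Müller glia. Slc1a3 UMIs per droplet ranged from 0 to 30 in PBS, with a median of 11, and from 0 to 79 in NaIO3, with a median of 20. Its level was 1113 CPM in the PBS droplets and 645 CPM in the NaIO3 droplets, a ratio of 0.58 (0.523 to 0.644), and 0.395 (0.355 to 0.441) without the 4 droplets. Per Slc1a3 UMI there were 6.12 (5.48 to 6.85) Glul UMIs in PBS and 3.94 (3.87 to 4.02) in NaIO3. These intervals do not overlap, but those of droplets under limits on rod share and depth, 5.83 (5.04 to 6.77) and 4.7 (4.28 to 5.17), do (the limits are given further on). Overlap of 2 intervals does not show that the proportions are alike. The interval of the change itself, Slc1a3 relative to Glul in NaIO3 over PBS, lay above 1 under both limits, at 1.24 (1.04 to 1.48). With the limit on depth alone it was 1.17 (0.994 to 1.38), which includes 1. The ratio of Slc1a3 turned to 1.41 (1.27 to 1.56) with a gate on other Müller genes that admitted rod-rich PBS droplets. It was 0.822 (0.728 to 0.931) with that gate limited in both libraries to rod shares under 1% and without pigment epithelium-like droplets. These limits left 36 of 64 PBS and 181 of 716 NaIO3 droplets.

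Kcnj10 (chr1:172341210-172374085, plus strand) encodes Kir4.1, the main potassium channel of Müller glia. Kcnj10 UMIs per droplet ranged from 0 to 8 in PBS, with a median of 1, and from 0 to 24 in NaIO3, with a median of 4. It was at 159 CPM in the PBS droplets and 132 CPM in the NaIO3 droplets, from 53 and 2794 UMIs. The ratio was 0.831 (0.634 to 1.11), an interval that includes 1, and 0.619 (0.461 to 0.85) without the 4 droplets. Its direction depended on the processing, at 1.19 (0.886 to 1.63) with a gate by share of UMIs, 1.09 (0.848 to 1.43) with no mitochondrial limit, 1.15 (0.435 to 4.31) at equal depth and 1.36 (1.05 to 1.85) with the level of rod-like cells subtracted and the total reduced by it. The last value depends on the rod marker share of the PBS droplets, 2.55% with the 4 droplets and 0.573% without them. Kcnj2 (chr11:111066164-111076821, plus strand) encodes Kir2.1, a strongly rectifying channel of the same family. It had 0 UMIs in the PBS droplets, with an interval that reaches 11 CPM. In NaIO3 it had 6 UMIs in 4 droplets, 0.283 CPM, so no ratio is given.

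Aqp4 encodes the water channel of glial end-feet. Aqp4 UMIs per droplet ranged from 0 to 30 in PBS, with a median of 9.5, and from 0 to 59 in NaIO3, with a median of 16. It was at 826 CPM in the PBS droplets and 536 CPM in the NaIO3 droplets, a ratio of 0.649 (0.576 to 0.734), and 0.432 (0.382 to 0.491) without the 4 droplets. The gate asks for 10 UMIs of its genes at any depth, a larger share of a shallower droplet. With a gate by share of UMIs the ratio of Aqp4 was 0.934 (0.826 to 1.06), which includes 1, and that of Slc1a3 0.729 (0.655 to 0.814). The part of the gate in the ratios of these 2 genes was not tested. Per Slc1a3 UMI there were 0.742 (0.633 to 0.869) Aqp4 UMIs in PBS and 0.831 (0.811 to 0.852) in NaIO3. These intervals of the proportion of water channel to glutamate transporter overlap, which does not show that the proportions are alike. The gate on other genes gave an Aqp4 ratio of 1.6 (1.42 to 1.8), above 1. With the limits on both libraries given for Slc1a3, that gate gave 0.904 (0.791 to 1.04).

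Car2 (chr3:14886273-14900770, plus strand) encodes cytosolic carbonic anhydrase II, which interconverts carbon dioxide and bicarbonate. Car2 UMIs per droplet ranged from 0 to 53 in PBS, with a median of 14, and from 0 to 87 in NaIO3, with a median of 18. It was at 1562 CPM in the PBS droplets and 610 CPM in the NaIO3 droplets, a ratio of 0.391 (0.358 to 0.427), and 0.267 (0.244 to 0.293) without the 4 droplets. Car14 (chr3:95897768-95904691, minus strand) encodes the membrane-bound carbonic anhydrase XIV. Car14 UMIs per droplet ranged from 0 to 35 in PBS, with a median of 6, and from 0 to 44 in NaIO3, with a median of 8. It was at 697 CPM in the PBS droplets and 291 CPM in the NaIO3 droplets, a ratio of 0.417 (0.366 to 0.478), and 0.366 (0.314 to 0.429) without the 4 droplets. The 3 droplets with Ttr carried 35, 15 and 12 Car14 UMIs, 10, 7 and 3 Glul UMIs, and 0 of Kcnj10, Car2, Gpr37 and Dkk3.

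Gpr37 (chr6:25665878-25690729, minus strand) encodes a G protein-coupled receptor of glia for which prosaposin has been proposed as a ligand. Gpr37 UMIs per droplet ranged from 0 to 30 in PBS, with a median of 8.5, and from 0 to 49 in NaIO3, with a median of 11. It was at 841 CPM in the PBS droplets and 378 CPM in the NaIO3 droplets, a ratio of 0.45 (0.399 to 0.508), and 0.318 (0.281 to 0.362) without the 4 droplets. Dkk3 (chr7:112116017-112159057, minus strand) encodes a secreted glycoprotein of the Dickkopf family. Dkk3 UMIs per droplet ranged from 0 to 55 in PBS, with a median of 21.5, and from 0 to 111 in NaIO3, with a median of 31. It was at 1844 CPM in the PBS droplets and 984 CPM in the NaIO3 droplets, a ratio of 0.534 (0.492 to 0.579), and 0.37 (0.341 to 0.403) without the 4 droplets. Both were lower as a share of UMIs and not lower in the median droplet. With the gate on other genes Dkk3 was at 1.26 (1.16 to 1.36) and Gpr37 at 1.08 (0.966 to 1.22). With the limits on both libraries given for Slc1a3 they were at 0.869 (0.792 to 0.956) and 0.576 (0.50 to 0.666).

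Of the 8 genes with a ratio, 4 (Glul, Car2, Car14 and Gpr37) were at least 2 times lower in NaIO3 and 0 were at least 2 times higher. Of 8370 genes that reached 20 CPM in 1 library or both and 20 UMIs in all, 10.4% were at least 2 times lower and 12% higher. The median log2 ratio was -1.02 over the 8 genes and 0.07 over all genes. With TMM scaling 4 of 8 were again lower, beside 9.26% of genes lower and 13.7% higher. Without the 4 droplets 7 of 8 were lower, all but Kcnj10, beside 17.6% lower and 18.9% higher. The 7 include the gate genes Slc1a3 and Aqp4, whose levels the gate can shape. Summed over the 9 genes, the level was 13855 CPM in PBS and 6123 CPM in NaIO3.

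**Figure D1:**
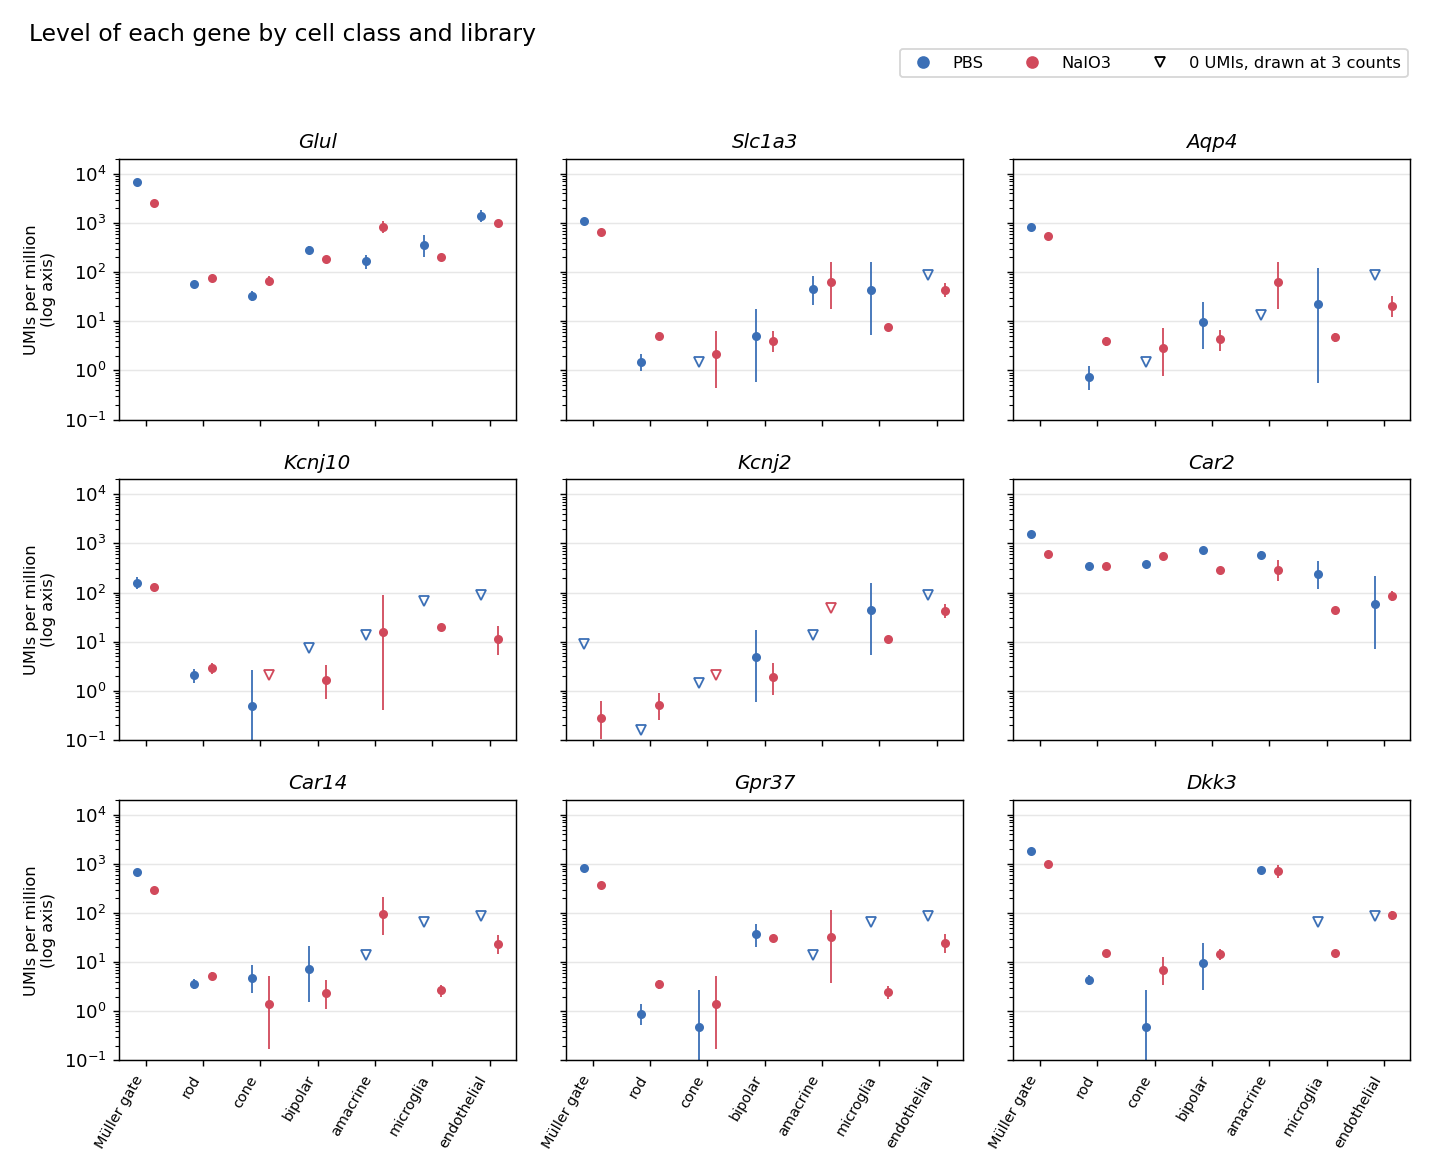
Level of each of the 9 genes in CPM (log axis) by cell class and library, with 95% counting intervals; triangles stand for 0 UMIs and are drawn at the level of 3 counts. The gated Müller droplets stand well above rod-like cells for all genes but Car2, at 610 against 346 CPM in NaIO3, and Kcnj2, which is near 0 in both. For Slc1a3 and Aqp4 the gate itself sets this, since rod-like cells hold under 3 UMIs of its genes.

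The ratios depended on which droplets were compared. With the 4 droplets left out, rod shares under 1% and 3000 to 12000 UMIs a droplet, 17 PBS and 45 NaIO3 droplets were left, with rod shares of 0.102% and 0.104% and medians of 6905 and 9361 UMIs. Between these, Car2 had a ratio of 0.405 (0.346 to 0.474), Gpr37 of 0.468 (0.386 to 0.569) and Glul of 0.596 (0.557 to 0.638). Car14 was at 0.686 (0.549 to 0.863), Slc1a3 at 0.738 (0.629 to 0.869) and Dkk3 at 0.858 (0.765 to 0.963). The intervals of Aqp4, 0.931 (0.785 to 1.11), and Kcnj10, 1.11 (0.734 to 1.72), included 1. Here 2 of 8 were at least 2 times lower, beside 12.3% of genes lower and 11.1% higher. With the limit on rod share alone 3 of 8 were lower (15.7% of genes lower, 12.7% higher), and with the limit on depth alone 2 of 8 (11% lower, 13.5% higher).

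**Figure D2:**
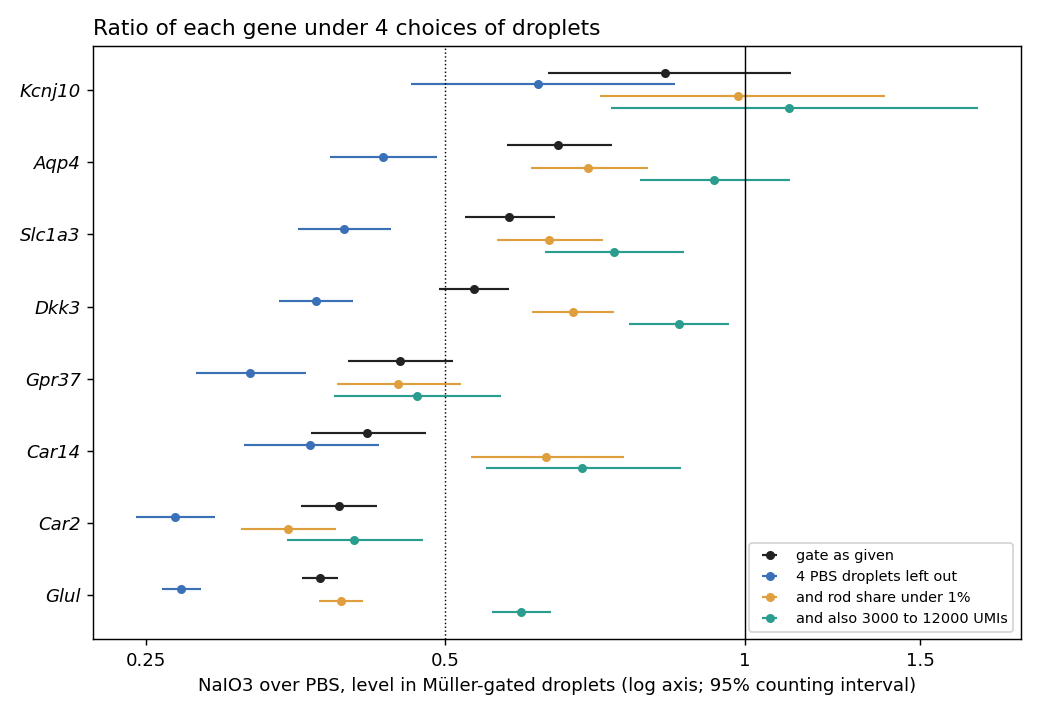
NaIO3 over PBS ratio of the 8 genes with a ratio (log axis, 95% counting intervals) under 4 choices of droplets, with lines at 1 and 0.5. Kcnj10 has the highest ratio under every choice shown, and Glul moves from 0.271 without the 4 droplets to 0.596 once rod share and depth are limited too.

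Counted as UMIs per droplet, with no division by the total, Glul was at a mean of 75.9 in PBS and 84.4 in NaIO3, and Car2 at 17.4 and 20.2. Without the 4 droplets the ratios per droplet of all 8 genes were above 1, from 1.09 (0.997 to 1.2) for Car2 and 1.11 for Glul to 2.53 for Kcnj10, where the median gene of all those tested was 1.89 higher on the log2 scale. A gate of at least 5 UMIs added 20 PBS droplets with 8.0% rod markers, which held 54% of the UMIs, and Slc1a3 (1.18), Aqp4 (1.35), Dkk3 (1.09) and Kcnj10 (1.66) were then above 1. A gate of at least 5 UMIs of Rlbp1, Sox9, Sox2, Hes1, Abca8a, Spc25 and Col9a1, none of them members, added 34 PBS droplets with 7.05% rod markers and gave 0.826 for Glul, 0.696 for Car2, 0.995 for Car14 and 1.94 for Kcnj10, with Slc1a3, Aqp4, Gpr37 and Dkk3 above 1 as given with each gene.

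With rod shares under 1% and pigment epithelium-like droplets left out, that gate on other genes held 36 PBS and 181 NaIO3 droplets. Glul was then at 0.485 (0.462 to 0.51), Car2 at 0.414 (0.373 to 0.459), Aqp4 at 0.904 (0.791 to 1.04) and Kcnj10 at 1.3 (0.947 to 1.83). At least 2 times lower were 2 of 8, beside 15.3% of genes lower and 10.4% higher. The part of rod RNA and of depth in the levels was not tested.

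**Figure D3:**
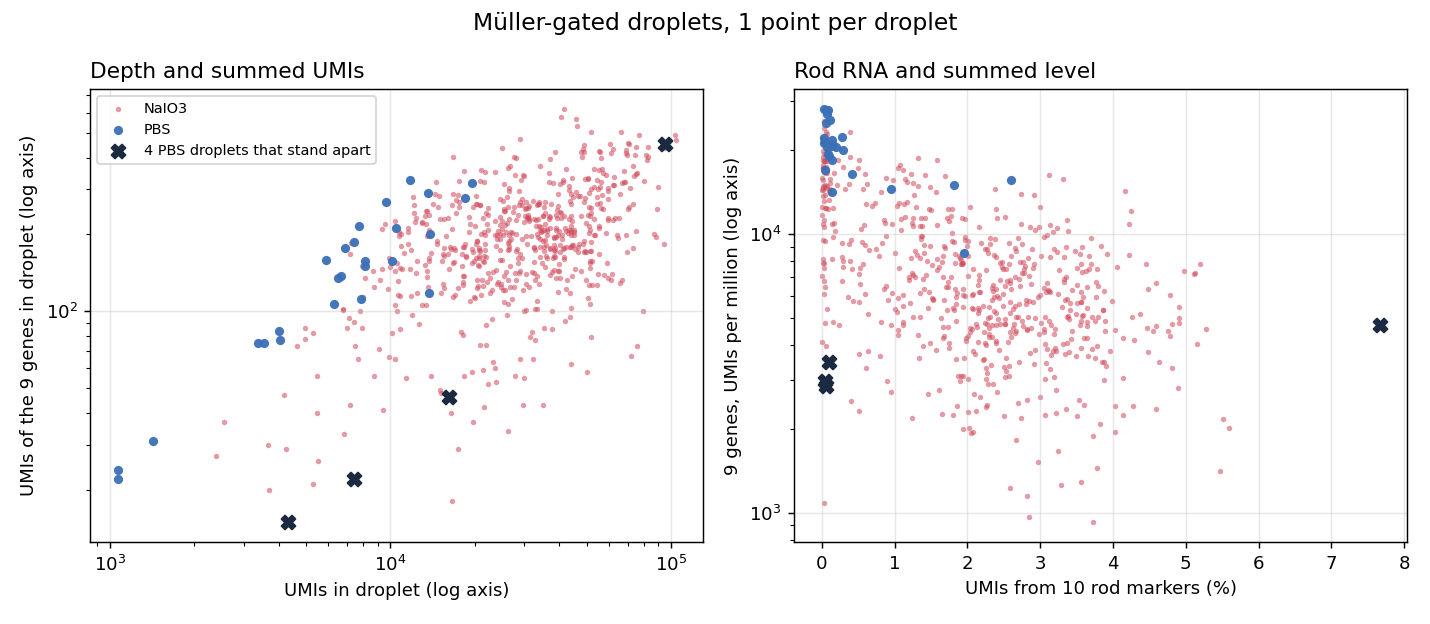
Each gated droplet as 1 point, with UMIs of the 9 genes against total UMIs (left, log axes) and the summed level of the 9 genes against the share of rod markers (right, level on a log axis); crosses are the 4 PBS droplets that stand apart. NaIO3 droplets reach greater depths, with a median of 191 UMIs of the 9 genes against 143.5 in PBS, and a lower median level, 6336 against 20317.5 CPM.

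The proportion of one gene to another does not use the droplet total. Per Kcnj10 UMI, PBS droplets held 42.9 (32.7 to 57.5) Glul UMIs and NaIO3 droplets 19.3 (18.6 to 20.1). Relative to Glul, Kcnj10 was 2.22 (1.69 to 2.99) times higher in NaIO3, a pair chosen as the ends of the order after the values were seen. Of 21 other ways of processing, 4 scale all genes alike and cannot move such a proportion or the order of the genes. Over the other 17, which share droplets, it lay between 1.62 and 3.22, and in all 15 of them that allow an interval the interval lay above 1. The highest, 3.22 (1.2 to 12.2), came from thinning to 1000 UMIs, which left 4 Kcnj10 UMIs in PBS. With the gate as given and these 17, Kcnj10 had the highest ratio of the 8 genes under all 18, Aqp4 the next under 17 and Car2 or Glul the lowest under 16. With a mitochondrial limit of 5% Slc1a3 was next and Car14 lowest, and at equal depth Gpr37 was lowest. The place of Kcnj10 above Aqp4 is not resolved by the counts. Relative to Aqp4 it lay between 1.05 and 1.74 over the 17, and the interval was above 1 in 2 of 15. Relative to Slc1a3 the interval was above 1 in 11 of 15.

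The other genes lay between. Per Kcnj10 UMI, Car2 was at 9.85 (7.42 to 13.3) in the PBS library and 4.63 (4.44 to 4.82) in the NaIO3 library, and Gpr37 at 5.3 (3.94 to 7.25) and 2.87 (2.75 to 3.0). Car14 was at 4.4 (3.25 to 6.04) and 2.21 (2.11 to 2.31), and Dkk3 at 11.6 (8.77 to 15.7) and 7.46 (7.17 to 7.77). None of these pairs of intervals overlaps, whereas those of Aqp4, 5.21 (3.87 to 7.13) and 4.07 (3.9 to 4.24), do. Under the limits on rod share and depth the intervals of Car14, 3.8 (2.52 to 5.89) and 2.36 (1.88 to 2.97), and of Dkk3, 13.4 (9.24 to 20.1) and 10.4 (8.55 to 12.7), overlap too. Such overlap does not show that the proportions are alike. The intervals of Glul, 42 (29.2 to 62.5) and 22.6 (18.7 to 27.6), Car2, 9.37 (6.42 to 14.1) and 3.43 (2.77 to 4.27), and Gpr37, 5.87 (3.97 to 8.95) and 2.48 (1.99 to 3.12), do not overlap. Car2 per Glul UMI was 0.229 (0.208 to 0.252) in PBS and 0.24 (0.235 to 0.244) in NaIO3, and under the limits on rod share and depth 0.223 (0.195 to 0.254) and 0.152 (0.136 to 0.169).

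**Figure D4:**
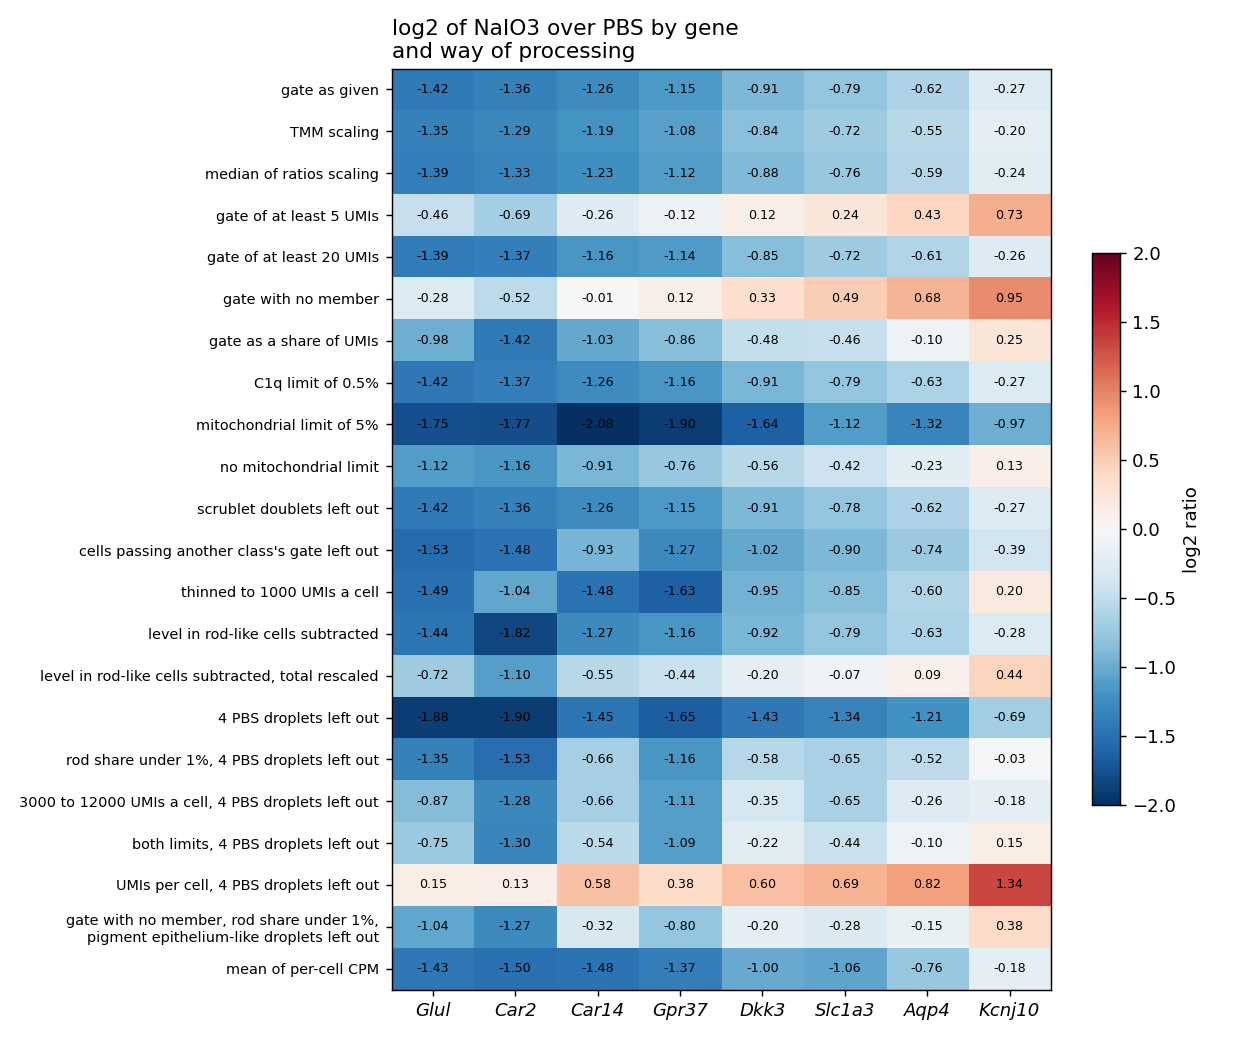
log2 of the NaIO3 over PBS ratio for 8 genes (columns) under 22 ways of processing (rows); blue is lower and red higher in NaIO3. Whole rows differ in colour, while Kcnj10 holds the highest value of each of the 22 rows, 4 of which repeat the order of another by construction.

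At a fixed depth of 1000 UMIs, which left out 0 gated droplets, Glul was found in 90% (73.5 to 97.9) of PBS and 83.7% (80.6 to 86.5) of NaIO3 droplets, against 6.76% and 7.42% of rod-like cells (median depths before thinning 2390.5 and 2451.5 UMIs, with 286 and 709 shallower cells left out). Car2 was found in 76.7% (57.7 to 90.1) and 49.9% (46 to 53.9), against 26.5% and 27.7% of rod-like cells. Gpr37 was found in 63.3% (43.9 to 80.1) and 33.5% (29.8 to 37.3) and Car14 in 60% (40.6 to 77.3) and 27.1% (23.7 to 30.7), all against under 1% of rod-like cells. The intervals of Car2, Gpr37 and Car14 do not overlap between libraries, but droplets are not replicates and the PBS shares include the 4 droplets that stand apart. Thinning also leaves the median rod marker shares unequal, at 0.107% in PBS and 2.16% in NaIO3. Kcnj10 was found in 13.3% (3.76 to 30.7) and 13.6% (11.1 to 16.5), and at full depth in 18 of 30 and 589 of 639 droplets.

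Other classes and free RNA gave each gene its own background. Relative to rod-like cells of the same library, Gpr37 was 936 times higher in gated droplets in PBS and 107 times in NaIO3, Dkk3 420 and 63.7 times, and Car14 194 and 54.5 times. Glul was 117 and 33.5 times higher and Kcnj10 76.9 and 45.1 times. Slc1a3 and Aqp4 are left out of the counts, since the gate sets them apart from rod-like cells, which hold under 3 UMIs of its genes. In PBS all 6 other genes with a ratio were at least 2 times higher (21.6% of genes were higher and 13.8% lower), and in NaIO3 5 of 7 were, all but Car2 and Kcnj2 (13.1% higher and 1.88% lower).

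Car2 stood nearest to the other classes, at 4.4 times the rod-like level in PBS and 1.76 times in NaIO3. It was at 355 and 346 CPM in rod-like cells, 374 and 558 CPM in cone-like cells and 734 and 288 CPM in bipolar-like cells. Rod-like cells without a UMI of the 3 gate genes still held 352 and 344 CPM. Per Glul UMI rod-like cells held 6.11 and 4.55 Car2 UMIs, a proportion far from that of the gated droplets. With the rod-like level subtracted in proportion to rod markers, the Car2 ratio of NaIO3 over PBS was 0.283 (0.258 to 0.31) when divided by the full total and 0.467 (0.426 to 0.512) when the subtracted part was taken from the total too. The full total moved the median log2 ratio of all genes to -0.93, the reduced total to -0.12. The subtracted level was scaled by the rod marker share of gated droplets over that of rod-like cells, 0.29 in PBS and 0.57 in NaIO3. Rod markers were 2.55% of the UMIs of the gated PBS droplets with the 4 droplets and 0.573% without them. No subtraction without the 4 droplets is given.

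The potassium channels were found in other classes too. Kcnj10 was at 20.2 CPM in the NaIO3 microglia-like cells, with 388 UMIs in 234 of 1430 cells. In the 1236 of these without a UMI of the gate genes (median 2561 UMIs) it was found in 14.2%, against 0.72% of such rod-like cells (median 2419 UMIs). Its level there was 20.7 and 2.15 CPM. Depth was not equal, since the upper quartile of the full NaIO3 classes was 17569 UMIs in microglia-like and 3924 in rod-like cells. At the fixed depth of 1000 UMIs, Kcnj10 was found in 2.27% (1.5 to 3.28) and 0.297% (0.166 to 0.489) of these full classes, with 240 and 709 shallower cells left out. Kcnj2 was at 11.5 CPM in microglia-like and 42.9 CPM in endothelial-like cells of NaIO3, above its level in gated droplets. The PBS library held 13 microglia-like and 3 endothelial-like cells, too few to compare.

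Dkk3 was at 735 CPM in the 22 amacrine-like cells of PBS and 700 CPM in the 8 of NaIO3. Glul was at 987 CPM in NaIO3 endothelial-like cells, and at 750 CPM in the 95 of them without a UMI of the gate genes. Gpr37 was at 36.7 and 30.6 CPM in bipolar-like cells, against 0.899 and 3.53 CPM in rod-like cells.

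Over 13 points, each 1 class in 1 library, the genes most like Kcnj10 by Pearson r of log2(CPM + 1) were Pdpn (0.96), Mlc1 (0.95) and Frzb (0.95). For Glul they were Slc1a3 (0.94), Aqp4 (0.94) and Espn (0.92), for Slc1a3 Glul (0.94), Nupr1 (0.92) and Cryab (0.91), and for Aqp4 Glul (0.94), Cryab (0.93) and Espn (0.93). For Car2 they were Aldoc (0.93), Cspg5 (0.91) and Dhx30 (0.90), and for Car14 Gpx8 (0.98), Col2a1 (0.97) and Col4a5 (0.97). For Gpr37 they were Sulf1 (0.96), Irx5 (0.95) and Nudt4 (0.94), and for Dkk3 Cacng4 (0.97), Pax6 (0.96) and Vat1l (0.96). The classes were gated on some of these genes, Slc1a3 and Aqp4 for the Müller points and Pax6 for the amacrine-like points. Values of r that involve these genes are thus partly set by the gates. The points also share 2 libraries and their free RNA, and the values describe likeness only.

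Within the NaIO3 library, Glul, Car14 and Aqp4 levels in CPM differed by the share of Lcn2, which encodes lipocalin 2, an acute phase protein of reactive glia. In the 225 droplets with at least 0.1% of UMIs from Lcn2, Glul was at 2036 CPM (2004 to 2067), and in the other 414 at 2847 CPM (2818 to 2876). Car14 was at 245 CPM (234 to 256) and 318 CPM (309 to 328), and Aqp4 at 517 CPM (501 to 533) and 548 CPM (535 to 560). In mean UMIs per droplet Glul was at 71.1 and 91.7 and Car14 at 8.55 and 10.3. Aqp4 was at 18.1 and 17.6, the other direction from its CPM. The intervals of Kcnj10, 134 CPM (126 to 142) and 131 CPM (125 to 137), and of Slc1a3, 652 CPM (634 to 670) and 642 CPM (628 to 656), overlap, as do those of Car2, Gpr37, Dkk3 and Kcnj2. Rod marker shares were 2.34% and 2.51% and median depths 32360 and 28838.5 UMIs.

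Among NaIO3 droplets with rod shares under 1%, 40 had that much Lcn2 and 100 had less (median depths 17850 and 14979.5 UMIs). Glul was at 2451 CPM (2342 to 2563) in the 40 and at 4792 CPM (4689 to 4898) in the 100. Aqp4 was at 814 CPM (752 to 880) and 1052 CPM (1004 to 1102) and Car14 at 394 CPM (351 to 441) and 588 CPM (552 to 626) in the same droplets, and Kcnj10 at 250 CPM (216 to 287) and 234 CPM (211 to 258). These are ranges of 1 gene within 1 library, and droplets are not replicates.

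The counts of the lists of genes around the members stand beside those of all genes, of which 12% were at least 2 times higher and 10.4% lower with the gate as given, 18.9% and 17.6% without the 4 droplets, and 13.5% and 11% in the window of 3000 to 12000 UMIs without them. Levels and ratios of single list genes include the 4 droplets unless stated. In the glutamate and glutamine list 18 of 25 genes passed the filter on low counts, 3 were at least 2 times higher and 4 lower, and the median log2 ratio was -0.12 beside 0.07 over all genes. The GABA transporter gene Slc6a11, at 341 and 164 CPM in PBS and NaIO3, ratio 0.479 (0.398 to 0.583), was among the lower ones. Slc1a2, the GLT-1 glutamate transporter, had a ratio of 1.11 (0.971 to 1.27), Slc38a3, a glutamine transporter, of 0.868 (0.707 to 1.08), and Glud1, glutamate dehydrogenase, of 0.573 (0.435 to 0.77). Without the 4 droplets 6 of 17 were higher, 4 were lower and the median was 0.75, and in the window 2 of 13 were higher and 2 lower.

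In the potassium list 1 of 17 measured genes was at least 2 times higher and 5 lower, and without the 4 droplets 3 of 15 and 4 (12% and 10.4% of all genes as given). In the window 3 of 13 were higher and 3 lower. Fxyd6, which encodes a regulator of ion transport, was at 407 and 99.8 CPM, ratio 0.245 (0.206 to 0.294). Without the 4 droplets its ratio was 0.157, and that of Kcnk1, a leak channel, was 0.179. Fxyd1 had a ratio of 0.749 and Atp1b2 of 1.38. Kcnj13 (0.019) and Atp1b1 (0.0248) were under the filter once the 4 droplets were left out.

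In the water and end-foot list 2 of 11 measured genes were at least 2 times higher and 1 lower, the lower being the syntrophin gene Sntb1, at 102 and 41.1 CPM, ratio 0.404 (0.287 to 0.588). Dmd, which encodes dystrophin, had a ratio of 0.745, and 1.55 without the 4 droplets, and Dag1, dystroglycan, of 1.52. With the 4 droplets left out, 2 were higher and 2 lower, and in the window 0 of 10 were higher and 1 lower. In the acid-base and lactate list 1 of 10 was higher, 5 were lower, beside 10.4% of all genes lower, and the median was -0.82. Leaving out the 4 droplets, 2 of 11 were higher and 4 lower, and in the window 2 of 7 and 1. Bsg, basigin, the partner of lactate transporters, was at 3065 and 865 CPM, ratio 0.282 (0.265 to 0.301), the lactate transporter gene Slc16a1 at 251 and 120 CPM, and the bicarbonate cotransporter gene Slc4a7 at 102 and 251 CPM, ratio 2.47 (1.76 to 3.57). Ldhb had a ratio of 0.415 and Ldha of 1.69.

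Around Gpr37, 3 of 7 listed genes were measured and 0 were at least 2 times higher or lower, with Psap, prosaposin, at 419 and 392 CPM and Gnai2 at 967 and 628 CPM. Once the 4 droplets were left out, 1 of 3 was lower, and in the window 2 of 4 were higher, so that the count changed with the droplets. In the Wnt and Dickkopf list 1 of 5 was lower and 0 higher, and the receptor gene Fzd5 had a ratio of 0.511 (0.414 to 0.638), and 0.338 without the 4 droplets. In this list 2 of 5 were lower without the 4 droplets and 0 of 3 in the window. In the gliosis list 14 of 17 were at least 2 times higher and 0 lower, with a median of 2.81, beside 12% of all genes higher. Without the 4 droplets 12 were higher, beside 18.9%, and in the window 13 of 15, beside 13.5%. Lcn2 had 2 UMIs in PBS and 36496 in NaIO3, ratio 288 (79.6 to 2376). Gfap, glial filament protein, had 1 and 2777 UMIs, ratio 43.8 (7.85 to 1730), and Timp1 had 0 and 2810 UMIs, at least 14.8 times higher taking 3 counts in the PBS droplets. The ratio of Serpina3n was 15.8 (9.07 to 30.7), that of Cebpd 6.99 (4.73 to 10.8) and that of S100a6 6.32 (4.82 to 8.47), and Vim, vimentin, was at 1.06 (0.913 to 1.23), and at 0.696 (0.599 to 0.813) without the 4 droplets, the other direction. Whether these bear on the levels of the 9 genes was not tested.

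**Figure D5:**
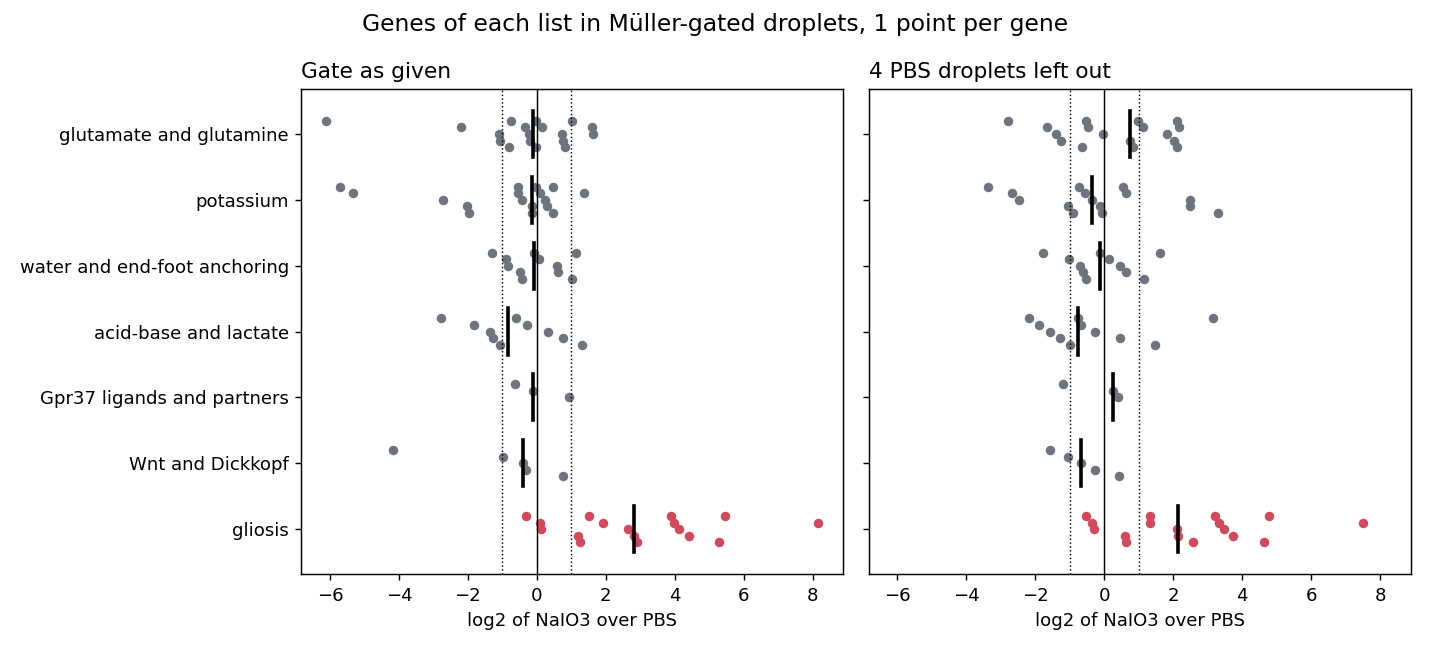
log2 of NaIO3 over PBS in gated droplets for the measured genes of 7 lists, 1 point a gene, with the median of each list as a bar, for the gate as given (left) and without the 4 PBS droplets (right); dotted lines mark 2 times. Gliosis genes lie mostly to the right in both panels, with medians of 2.81 and 2.14, and the medians of the other lists lie between -0.82 and 0.75.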

How the data were processed

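Each library came as a deposited matrix of raw UMI counts for genes and barcodes, made with Cell Ranger 3.0.2 per the file headers, and mm10 is the build named in the submitters' processing notes. Its annotation release was not given in the sources used here. A barcode was kept with 500 or more UMIs, 300 or more genes and no more than 15% mitochondrial UMIs, which removed 669 PBS and 305 NaIO3 barcodes. Class sums of counts were scaled to CPM by the summed UMIs of that class. Intervals are exact (Poisson for levels, Clopper-Pearson for shares, conditional binomial for ratios). Other classes were gated on marker shares with thresholds chosen after seeing the data; rod-like cells held at least 1% rod markers and under 3 UMIs of the gate genes. Scrublet marked 0 PBS cells, taken as a failed call, and 180 NaIO3 cells, 2 of them gated. These cells were kept in the results and left out in an alternative. Genes named are the 9 members, list genes drawn from those at 50 CPM or more (up to 6 by level, and any 4 times apart, which Kcnk1 met only without the 4 droplets), and the 3 genes most like each member. Some list genes that this rule names are not reported here, though the list counts and medians include them. The members and lists were chosen with earlier results of these data known. Scripts ran on Python 3.11.15 with scanpy 1.11.5 and scipy 1.17.1, edgeR 4.0.16 gave TMM factors, and the ratio code was tested on simulated data. Promoters are RefSeq windows. Alternatives changed scaling, gates, filters, doublets, free RNA, depth and the droplets kept.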

Additional observations from a re-analysis of the deposited data

How the results depend on the processing

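With 1 library a group no library could be left out, and no interval covers differences between animals. No paired analysis was possible because each group has 1 library. Depth limits Kcnj10, with 53 UMIs in PBS, and Kcnj2, with 0. The summed ratio of the 9 genes, 0.442 with the gate as given, was 0.464 with TMM scaling, 0.854 with a gate of at least 5 UMIs, 0.979 with the gate on other genes, 0.571 with a gate by share of UMIs, 0.316 and 0.549 with a mitochondrial limit of 5% and with none, 0.414 without droplets of another class's gate, 0.428 thinned to 1000 UMIs, 0.427 with the rod-like level subtracted and 0.417 as a mean of droplet CPM. Settings chosen after seeing the data gave 0.316 without the 4 PBS droplets, 0.485, 0.596 and 0.65 with the limit on rod share, on depth and on both, 0.704 with the subtracted part also taken from the total, 0.606 with the limited gate on other genes and 1.29 in UMIs per droplet without the 4. The 4 members at least 2 times lower became 1, 0, 2, 7 and 2 with the 5 UMI gate, the gate on other genes, the share gate, the 5% limit and no limit. They became 7 without the 4 droplets, 2, 2 and 2 in the depth window, with both limits and with the limited gate on other genes, 1 with the total reduced and 0 in UMIs per droplet without the 4, where 1 was higher. Above 1 were Slc1a3 (1.18), Aqp4 (1.35) and Dkk3 (1.09) with the 5 UMI gate, Slc1a3 (1.41), Aqp4 (1.6), Gpr37 (1.08), Dkk3 (1.26) and the sum without Glul (1.13) with the gate on other genes, and Aqp4 (1.07) with the total reduced. Kcnj10, 0.831 as given, was at 1.66, 1.94 and 1.36 with these 3, and at 1.19 with the share gate and 1.09 with no mitochondrial limit. In UMIs per droplet without the 4, Glul (1.11), Slc1a3 (1.61), Aqp4 (1.77), Car2 (1.09), Car14 (1.49), Gpr37 (1.3), Dkk3 (1.51) and the sum without Glul (1.46) were above 1. The cause was not tested. Over all genes, 1001 and 868 higher and lower became 1596 and 1488 without the 4 droplets, 1900 and 1795 with the 5% limit, 633 and 367 with the gate on other genes, 515 and 574 with both limits, 252 and 2910 with the rod-like level subtracted and 1505 and 2191 with no filter on low counts. Lower genes were 379 with the 5 UMI gate and 1482 with the total reduced, and higher genes 1738 as a mean of droplet CPM. The gated share of PBS cells was 0.897%, 1.15% and 0.796% with the 5 UMI gate, the gate on other genes and the 5% limit, and of NaIO3 cells 7.58%, 3.24% and 5.77% with the gate on other genes, the share gate and the 5% limit. Kcnj10 relative to Glul was 3.22 (1.2 to 12.2, with 4 Kcnj10 UMIs in PBS) when thinned and 1.62 in the depth window. Kcnj10 relative to Car2, 2.13 as given, was 3.18 with the share gate, 2.91 with the rod-like level subtracted, whether or not the total was reduced, and 3.14 with the limited gate on other genes.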
